A study of Mus musculus with 20 samples.

Results

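The 30 genes described here make cholesterol and fatty acids or control and carry their products, and each was taken by its symbol from the table of read counts, which held 24394 genes. By role they were 7 genes of the mevalonate arm, 11 genes of the path from squalene to cholesterol, 6 regulators and sterol carriers, and 6 genes of fatty acid synthesis. All 30 were found and all 30 passed the filter on low counts, and the lowest count of any of them in any library was 2.

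Cholesterol synthesis starts from acetyl-CoA. The mevalonate arm turns it into isoprenoid units, these are joined into squalene, and squalene is cyclised to lanosterol and trimmed to cholesterol. Transcription of both the sterol and the fatty acid enzymes is driven by SREBP factors, which the escort protein SCAP carries out of the endoplasmic reticulum when sterols are low and which INSIG proteins hold back when sterols are high. In the brain most cholesterol is made locally, by oligodendrocytes and astrocytes above all, while microglia, the resident macrophages, also take up and export sterols from myelin and cell debris.

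Poly-A RNA of sorted microglia was sequenced from 20 mouse libraries at 3 stages, which were E16 (day 16 of gestation), P15 (day 15 after birth) and P60 (day 60 after birth). T2MG libraries (3 at E16, 3 at P15, 4 at P60) came from microglia that, per the labels, lacked TGF-beta signalling, and the series targets Tgfbr2, the type II receptor for this cytokine. Control libraries (3 at E16, 3 at P15, 4 at P60) are labelled only as such, while the series' text speaks of cells without 1 copy or both copies of Tgfbr2, so Control cells may lack a copy. All libraries have C57Bl6 and FVB as their strain. The genotype entry of P60 T2MG 4 is blank, and that library was grouped by its title. Not given in the sources used are the promoter that drove the deletion, the deleted exons and how the cells were gated. The text counts a number of animals per genotype equal to the number of libraries, so each library was taken as 1 animal.

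Library totals ran between 7437764 and 9221396 counts at E16 and between 12726594 and 16526122 counts at the later stages. Levels below are counts-per-million (CPM) on library sizes scaled by the TMM method, and libraries are always listed by replicate number. Tgfbr2 RNA was 165 to 232 CPM in T2MG and 196 to 293 CPM in Control libraries at E16, 228 to 471 CPM in T2MG and 501 to 642 CPM in Control libraries at P15, and 452 to 647 CPM in T2MG and 551 to 649 CPM in Control libraries at P60. Whether these counts cover the deleted exons is unknown. Microglia markers (12 genes, among them Csf1r, Cx3cr1 and P2ry12) were detected in every group, with none at 0 throughout, and summed to 5694 to 8904 CPM in T2MG and 9978 to 19667 CPM in Control libraries at E16 and to 28724 to 31549 CPM in T2MG and 71851 to 97996 CPM in Control libraries at P60. P60 Control 1 stood apart: its 9 neutrophil and monocyte markers summed to 7481 CPM against 113 to 186 CPM in the other P60 Control libraries, so P60 results are given with and without it where they differ. In RNA of whole sorted samples, fewer cells of a type and less RNA per cell cannot be told apart.

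**Figure D1:**
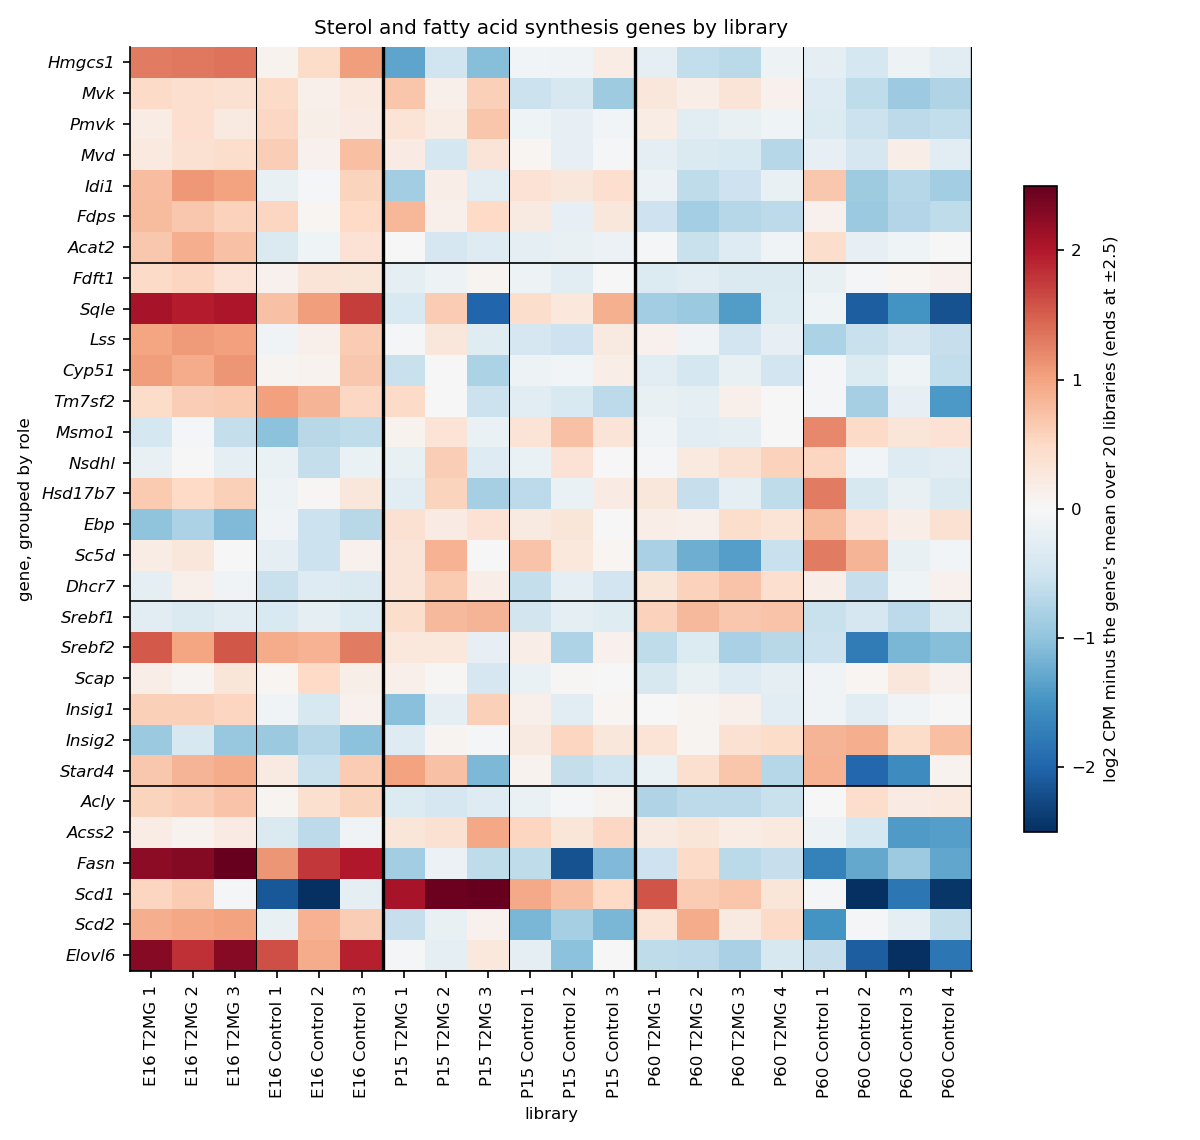
Level of each of the 30 genes in each of the 20 libraries, as log2 CPM relative to the gene's mean over all libraries (colour, with values beyond the ends of the scale drawn at the end); columns are libraries by stage with T2MG left of Control, rows are genes by role. A reader should see the high E16 columns of Fasn, Elovl6 and Srebf2, and the high E16 T2MG columns of Hmgcs1 and Sqle. Also to be seen are the high T2MG columns of Srebf1 at P15 and P60.

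Per kilobase of exon, so that genes can be compared, mean levels spanned a wide range. Scd2, the stearoyl-CoA desaturase that is abundant in brain, had 82.6 CPM per kilobase in E16 T2MG and 60.1 in E16 Control libraries, and Acly, which cleaves citrate to cytosolic acetyl-CoA, had 72.8 and 60.1 CPM per kilobase in the same groups. In P60 T2MG libraries Scd2 led at 60.7 CPM per kilobase, with Srebf1 next at 37.0, while in P60 Control libraries Acly led at 55.5, with Ebp next at 34.2. At the low end, Stard4, a carrier of sterols between membranes, stayed between 0.565 and 1.23 CPM per kilobase over the 6 group means. Scd1, a desaturase of the same family, had a mean of 0.229 CPM per kilobase in P60 Control libraries.

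Some of these genes share exon bases with other genes in the GENCODE M21 annotation of GRCm38, and since the counting and its use of strand are not given, such reads cannot be told apart. Fdft1 exons share 774 bases with Ctsb, Acss2 exons share 395 with Gss and 197 with Ggt7, and Cyp51 exons share 166 with Akap9. Scap shares 985 bases with 5830462I19Rik, Hmgcs1 shares 557 with Gm48342 and Srebf1 shares 109 with Rai1. All of these overlaps are on the opposite strand, and the list is not complete. Tm7sf2 shares 532 bases with Vps51, and Fdps shares 1124 bases with Gm43738, on the same strand. Scd1 and Scd2 are close paralogs, and so their counts may hold reads of each other.

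Promoter sequence was read for the members that come up most below, because SREBP factors act on such regions together with the CCAAT-binding factor NF-Y. RefSeq windows on GRCm38.p6, from 250 bases before to 50 bases after a start, were at hand for 24 of the 30 genes, in 32 windows. A sterol element core spelled TCACNCCAC was found on either strand in 1 of the 32 windows, that of Hmgcs1, and in 1.24% of all 32851 windows of the genome. CCAAT, on either strand, was in 22 of 32 windows (68.8%), against 37.4% of all windows. The E-box CACGTG, which reads the same on both strands, was in 6 of 32 windows (18.8%), against 7.15% of all windows. A match is only a match of letters, and its absence from a window says nothing about a factor. The 250 bases before the start are printed for Hmgcs1, which holds the sterol element core, for Mvk, the mevalonate kinase gene that moved the other way from Hmgcs1 at P15, for the outer and inner starts of Srebf1 that hold a CCAAT match, and for Fasn. Capitals mark the sterol element core and CCAAT, which appears as ATTGG where it lies on the other strand, and in Fasn a pair of matches on opposite strands overlap.
The stretches are chr13:119690101-119690350 (plus strand) for Hmgcs1, chr5:114444019-114444268 (plus strand) for Mvk, chr11:60210472-60210721 (minus strand) for the Srebf1 inner start, chr11:60222582-60222831 (minus strand) for the Srebf1 outer start and chr11:120824548-120824797 (minus strand) for Fasn, each 5′ to 3′ on the strand of its gene.
Hmgcs1: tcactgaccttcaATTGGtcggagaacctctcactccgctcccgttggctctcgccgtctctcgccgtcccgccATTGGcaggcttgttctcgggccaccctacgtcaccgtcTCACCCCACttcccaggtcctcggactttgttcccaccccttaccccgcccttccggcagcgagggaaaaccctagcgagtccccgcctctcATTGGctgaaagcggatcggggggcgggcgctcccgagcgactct
Mvk: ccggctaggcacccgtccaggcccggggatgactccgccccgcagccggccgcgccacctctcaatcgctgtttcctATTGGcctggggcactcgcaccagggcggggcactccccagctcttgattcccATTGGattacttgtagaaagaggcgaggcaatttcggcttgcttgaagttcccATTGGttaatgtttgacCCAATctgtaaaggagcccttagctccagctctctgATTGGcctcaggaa
Srebf1 inner start: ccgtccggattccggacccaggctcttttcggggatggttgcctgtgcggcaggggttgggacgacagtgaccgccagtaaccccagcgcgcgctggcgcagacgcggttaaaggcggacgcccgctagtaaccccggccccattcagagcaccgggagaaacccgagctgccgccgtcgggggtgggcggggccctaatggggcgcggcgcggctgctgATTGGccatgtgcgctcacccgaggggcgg
Srebf1 outer start: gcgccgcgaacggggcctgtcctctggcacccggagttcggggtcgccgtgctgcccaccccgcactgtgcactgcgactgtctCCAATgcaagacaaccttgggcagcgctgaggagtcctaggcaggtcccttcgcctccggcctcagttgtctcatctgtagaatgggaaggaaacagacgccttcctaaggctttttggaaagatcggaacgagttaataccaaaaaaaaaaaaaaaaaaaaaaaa
Fasn: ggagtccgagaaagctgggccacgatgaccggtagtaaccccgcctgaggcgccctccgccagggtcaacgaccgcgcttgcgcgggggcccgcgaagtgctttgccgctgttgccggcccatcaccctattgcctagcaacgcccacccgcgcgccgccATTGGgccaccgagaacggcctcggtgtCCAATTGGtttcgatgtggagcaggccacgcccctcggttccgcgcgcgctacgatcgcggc
In the Hmgcs1 sequence the sterol element core TCACCCCAC begins 137 bases before the start, on the strand shown. Mvk has 5 CCAAT matches and no sterol element core in its window.

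At E16, before birth, the cholesterol enzymes were on the high side in T2MG microglia, but 1 gene passed the test. Acat2, the acetoacetyl-CoA thiolase at the head of the mevalonate arm, rose by 0.78 ± 0.20 on the log2 scale (SE; edgeR adjusted p = 0.0443, T2MG over Control, n = 3 each). No member fell by that test. At an unadjusted edgeR p under 0.05 in either direction there were 8 of 30 members, against 2688 of 15568 genes tested. DESeq2 called 4 members higher and 1 lower. Of all genes tested, edgeR called 0.527% higher and 2.67% lower, and DESeq2 called 3% higher and 5.72% lower of those it gave an adjusted p. The fold change was above 0 in 25 of 30 members, against 53.5% of all genes, and the median over the members was 0.40, against 0.04 over all 15568 genes tested. All T2MG libraries lay above all Control libraries for 18 of 30 members, against 19.3% of all genes tested, and below them for 1 member, Ebp, against 15.1%.

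In the mevalonate arm at E16, Acat2 (ENSMUSG00000023832, GRCm38 chr17:12942890-12960747, minus strand) had 39.7, 46.6 and 41.0 CPM in T2MG libraries and 19.2, 23.0 and 31.8 CPM in Control libraries. The groups did not overlap, and Control 3 was the nearest to T2MG. Hmgcs1, the cytosolic HMG-CoA synthase of this arm, showed the same order, with 157, 159 and 164 CPM in T2MG and 68.2, 88.3 and 131 CPM in Control libraries (log2 fold change 0.74 ± 0.22, edgeR adjusted p = 0.0829). Idi1, which interconverts the isoprenoid units, had 38.2, 47.4 and 45.2 CPM in T2MG and 19.7, 21.6 and 33.0 CPM in Control libraries (0.81 ± 0.35, edgeR adjusted p = 0.244). Again Control 3 lay closest to T2MG and the groups stayed apart. The kinases Mvk and Pmvk, the decarboxylase Mvd and the farnesyl diphosphate synthase Fdps had fold changes between -0.16 and 0.31, with edgeR adjusted p of 0.526 or more. Summed over the 7 genes of this arm, the level was 348 to 366 CPM in T2MG and 215 to 303 CPM in Control libraries.

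Further down the path at E16, Sqle, the squalene epoxidase that is a rate-limiting step after squalene, had 79.4, 74.4 and 77.4 CPM in T2MG and 31.6, 39.2 and 63.5 CPM in Control libraries. The 3 T2MG libraries were tightly grouped and the Control libraries spread over a wide range, and the test did not pass (0.78 ± 0.52, edgeR adjusted p = 0.463, interval -0.24 to 1.81). Cyp51, the lanosterol demethylase, had 72.3, 67.1 and 74.9 CPM in T2MG and 36.8, 37.2 and 55.7 CPM in Control libraries (0.72 ± 0.20, edgeR adjusted p = 0.0597). Lss, the lanosterol synthase, had 26.6, 28.2 and 27.3 CPM in T2MG and 12.7, 14.6 and 20.8 CPM in Control libraries (0.77 ± 0.24, edgeR adjusted p = 0.0892). In each of these genes Control 3 was the highest Control library. Ebp, the sterol isomerase, ran the other way, with 29.0, 33.5 and 27.1 CPM in T2MG and 54.6, 40.3 and 35.8 CPM in Control libraries (-0.54 ± 0.17, edgeR adjusted p = 0.0978).

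Among the regulators at E16, Srebf1, which encodes the SREBP form most tied to fatty acid genes, was level, with 105, 100 and 105 CPM in T2MG and 98.4, 109 and 101 CPM in Control libraries (0.01 ± 0.12, interval -0.22 to 0.24). Insig1, itself a target of SREBP, had 32.4, 32.1 and 31.1 CPM in T2MG and 20.1, 16.3 and 22.9 CPM in Control libraries (0.69 ± 0.27, edgeR adjusted p = 0.201). For fatty acid synthesis, Fasn, the enzyme that builds palmitate, had 224, 233 and 294 CPM in T2MG and 102, 162 and 192 CPM in Control libraries (0.72 ± 0.35, edgeR adjusted p = 0.302). Its groups did not overlap, and the 6 genes of fatty acid synthesis together summed to 1072 to 1211 CPM in T2MG and 595 to 949 CPM in Control libraries.

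Without Control 3, Hmgcs1 (1.03, edgeR adjusted p = 0.0103), Lss (1.01, 0.0276) and Cyp51 (0.95, 0.0132) were called higher and Ebp (-0.67, 0.0375) lower, beside Acat2. That fit called 1.67% of all genes higher and 4.39% lower. Control 3 was the Control library nearest to T2MG in each of these genes. Leaving it out thus widens their differences by construction, and the added calls are no separate support. Leaving out any other of the 6 E16 libraries ended the Acat2 call (edgeR adjusted p of 0.101 to 0.253). Neuron and astrocyte markers were highest in Control 3 among the Control libraries and higher still in T2MG libraries: 17 neuron markers summed to 1084, 1306 and 1117 CPM in T2MG and 367, 556 and 817 CPM in Control libraries, 13 astrocyte markers summed to 405, 385 and 352 CPM in T2MG and 113, 163 and 304 CPM in Control libraries, and no marker of either list was at 0 throughout a group. All 17 neuron and all 13 astrocyte markers had a fold change above 0, with 0 called by edgeR in either list. At an unadjusted edgeR p under 0.05 there were 3 neuron and 4 astrocyte markers, against 2688 of 15568 genes tested. Of 12 microglia markers, 6 were called lower by edgeR, against 2.67% of all genes, and 0 had a fold change above 0. The part of any of these in the result was not tested.

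**Figure D2:**
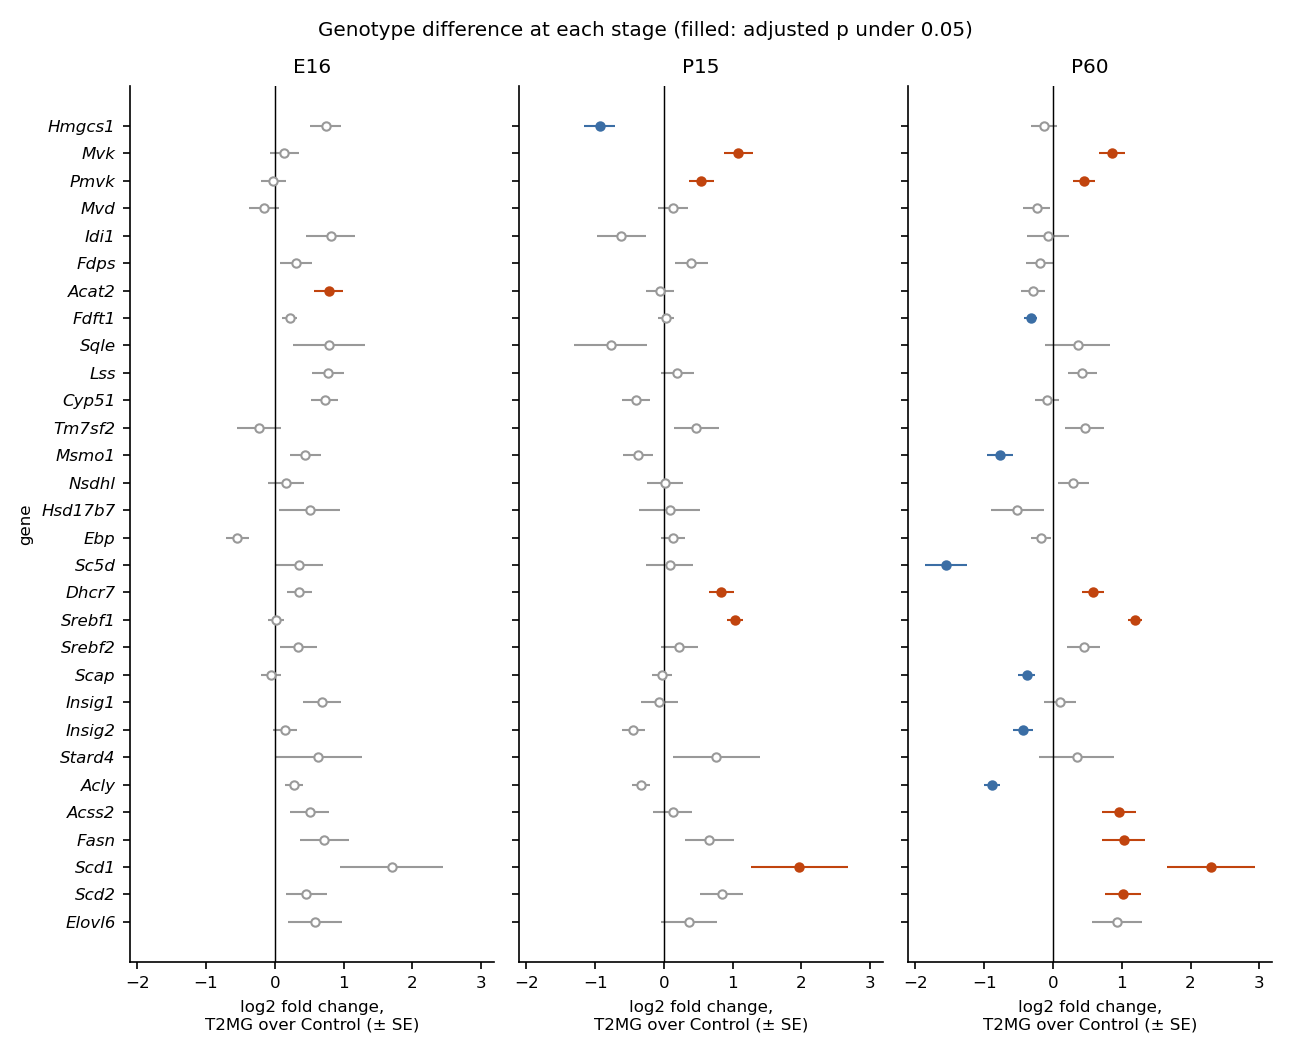
Log2 fold change of T2MG over Control for each of the 30 genes at E16, P15 and P60 (x axis, with bars of 1 SE), filled where the edgeR adjusted p is under 0.05, orange for higher and blue for lower. At E16 most points lie right of 0 with Acat2 filled; at P15 and P60 Srebf1, Mvk, Pmvk, Dhcr7 and Scd1 are filled on the right, and Hmgcs1 at P15 and Sc5d and Acly at P60 on the left.

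At P15, in the juvenile brain, calls went both ways. Srebf1, the kinases Mvk and Pmvk, Dhcr7, the reductase of the final step to cholesterol, and Scd1 rose in T2MG microglia, and Hmgcs1 fell. These were 5 of 30 called higher, against 11.7% of all genes tested, and 1 of 30 called lower, against 12.3%. The median fold change over the members was 0.13, against 0.01 over all genes tested. The members' median was 0.06 without P15 Control 2 (all genes 0.01) and 0.20 without P15 T2MG 3 (all genes 0). T2MG libraries all lay above Control libraries for 6 members (17.6% of all genes) and all below them for 4 (19.6% of all genes), so these shares were near those of genes at large.

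In the mevalonate arm at P15, neighbouring steps went opposite ways. Hmgcs1 (ENSMUSG00000093930, GRCm38 chr13:119690379-119708260, plus strand) had 25.6, 45.3 and 30.5 CPM in T2MG and 60.9, 60.3 and 72.9 CPM in Control libraries. It fell by 0.93 on the log2 scale (SE 0.22, edgeR adjusted p = 0.00558), and the groups did not overlap. Mvk (ENSMUSG00000041939, GRCm38 chr5:114444269-114460591, plus strand), the mevalonate kinase, had 16.9, 11.4 and 15.7 CPM in T2MG and 7.24, 7.92 and 5.61 CPM in Control libraries and rose by 1.08 ± 0.21 (edgeR adjusted p = 0.0013). Pmvk, the next kinase, had 18.3, 16.3 and 23.1 CPM in T2MG and 13.3, 12.5 and 13.8 CPM in Control libraries (0.54 ± 0.18, edgeR adjusted p = 0.0382). Both kinases had every T2MG library above every Control library. The call of Pmvk ended on leaving out any P15 library other than T2MG 2 (edgeR adjusted p of 0.0527 to 0.169).

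From squalene on at P15, Dhcr7 was the member that passed, with 58.5, 74.2 and 52.9 CPM in T2MG and 31.2, 39.4 and 33.6 CPM in Control libraries (0.83 ± 0.18, edgeR adjusted p = 0.00305). Sqle had 14.6, 29.6 and 4.82 CPM in T2MG and 25.8, 22.9 and 35.2 CPM in Control libraries (-0.77 ± 0.53, edgeR adjusted p = 0.308). Cyp51 had 23.9, 34.7 and 20.2 CPM in T2MG and 31.9, 33.3 and 39.3 CPM in Control libraries (-0.41 ± 0.20, edgeR adjusted p = 0.156). T2MG 2 was the highest of the 3 T2MG libraries in 8 of the 11 genes of this part of the path, and T2MG 3 was the lowest in 9 of 11. Without T2MG 2, chosen after these values were seen, Cyp51 (-0.66, edgeR adjusted p = 0.0232) and Insig2 (-0.53, 0.0484) were also called lower, in a fit that called 12.2% of all genes higher and 13.6% lower. The 9 neutrophil and monocyte markers summed to 26322, 6420 and 40793 CPM in T2MG and 7866, 4710 and 2922 CPM in Control libraries, so T2MG 2 was the lowest T2MG library there, and the part of these cells in the result was not tested.

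Srebf1 (ENSMUSG00000020538, GRCm38 chr11:60199089-60222581, minus strand) had the smallest adjusted p of the 30 genes at P15, with 176, 225 and 231 CPM in T2MG and 94.0, 110 and 105 CPM in Control libraries. The lowest T2MG library was well above the highest Control library, and the rise was 1.03 ± 0.12 (edgeR adjusted p = 1.12e-05). Srebf2, the SREBP gene most tied to sterol synthesis, did not pass, with 67.3, 67.5 and 48.8 CPM in T2MG and 63.6, 33.1 and 60.8 CPM in Control libraries (0.22 ± 0.27, edgeR adjusted p = 0.586). Scap, Insig1 and Stard4 did not pass either, with edgeR adjusted p of 0.406 or more. Insig2, the INSIG form that is not a classical SREBP target, had 34.7, 45.4 and 41.6 CPM in T2MG and 50.5, 62.7 and 52.3 CPM in Control libraries, without overlap (-0.44 ± 0.17, edgeR adjusted p = 0.0655).

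In fatty acid synthesis at P15, Scd1 (ENSMUSG00000037071, GRCm38 chr19:44394455-44407879, minus strand), a desaturase that makes monounsaturated fatty acids, had 12.6, 16.5 and 30.2 CPM in T2MG and 5.79, 5.08 and 4.27 CPM in Control libraries. The rise of 1.97 ± 0.70 only just passed (edgeR adjusted p = 0.0496), and leaving out any P15 library other than T2MG 1 ended the call (0.0582 to 0.175). Scd2 had 156, 205 and 249 CPM in T2MG and 105, 130 and 106 CPM in Control libraries, without overlap (0.84 ± 0.31, edgeR adjusted p = 0.0549). Acly had 197, 187 and 198 CPM in T2MG and 221, 245 and 265 CPM in Control libraries, also without overlap (-0.33 ± 0.13, edgeR adjusted p = 0.0805). Oligodendrocyte markers (13 genes) summed to 981, 914 and 910 CPM in T2MG and 256, 513 and 390 CPM in Control libraries, with 2 of 13 called higher. Border macrophage markers summed to 2950 to 5427 CPM in T2MG and 615 to 658 CPM in Control libraries (5 of 9 called higher), and neuron markers to 55.1 to 130 CPM in T2MG and 12.9 to 46.6 CPM in Control libraries (5 of 17 called higher). Of 13 astrocyte markers 2 were called higher and 2 lower, and of 12 microglia markers 8 were called lower. Of all genes tested, 11.7% were called higher and 12.3% lower, so the oligodendrocyte and astrocyte counts were near those shares. The part of any of these cell types in the P15 values was not tested.

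**Figure D3:**
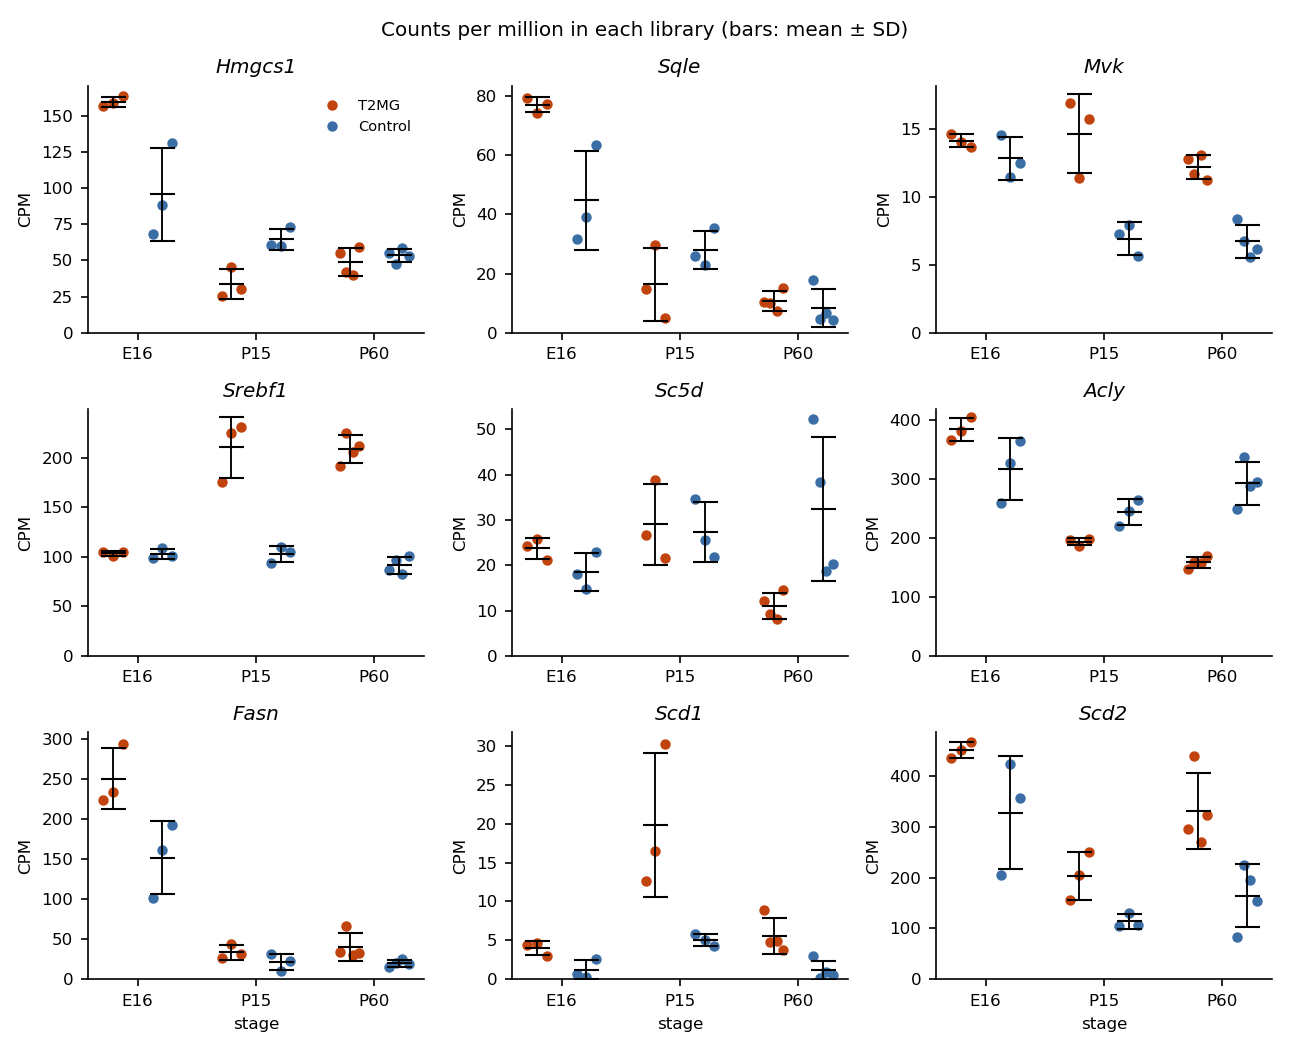
CPM of Hmgcs1, Sqle, Mvk, Srebf1, Sc5d, Acly, Fasn, Scd1 and Scd2 in each library (y axis, CPM), by stage on the x axis with T2MG left of Control. Points are libraries and bars are group means ± SD. Srebf1 is level at E16 and apart at P15 and P60, where T2MG libraries lie between 176 and 231 CPM and Control libraries between 82.2 and 110 CPM.

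At P60, in the adult, calls again went both ways. In T2MG microglia 4 of 6 genes of fatty acid synthesis were called higher and 1 lower. Of the 7 genes of the mevalonate arm 2 were called higher and 0 lower. Of the 11 genes from squalene to cholesterol 1 was called higher and 3 lower. Srebf1, Mvk, Pmvk, Dhcr7, Acss2, Fasn, Scd1 and Scd2 rose, which is 8 of 30, against 23.5% of all genes tested. Acly, Sc5d, Msmo1, Fdft1, Scap and Insig2 fell, which is 6 of 30, against 15.7%. Both shares were near those of all genes. The median fold change was 0.20 over the members and 0.14 over all genes. With DESeq2's size factors these medians were 0.13 and 0.07. The members' median was 0.41 without P60 Control 1, against 0.22 over all genes in that fit. It was 0.04 without P60 Control 2 (all genes 0.13), 0.09 without P60 Control 3 (0.13) and 0.08 without P60 T2MG 3 (0.14). In a fit of the P60 libraries alone it was 0.11, against -0.004 over all genes. Every T2MG library lay above every Control library for 8 members (22.2% of all genes tested) and below for 5 (16.2%).

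In the mevalonate arm at P60, Mvk had 12.7, 11.7, 13.1 and 11.2 CPM in T2MG and 8.38, 6.75, 5.57 and 6.16 CPM in Control libraries (0.86 ± 0.18, edgeR adjusted p = 0.00122, n = 4 each). Pmvk had 16.4, 11.9, 12.6 and 13.3 CPM in T2MG and 11.3, 9.87, 9.12 and 9.36 CPM in Control libraries (0.45 ± 0.16, edgeR adjusted p = 0.0314), a call that ended on leaving out any P60 library other than Control 1, T2MG 2 and T2MG 3 (0.0542 to 0.118). Both genes again had all T2MG libraries above all Control libraries. Hmgcs1, lower at P15, was level at P60, with 55.1, 41.7, 40.2 and 59.1 CPM in T2MG and 55.0, 47.5, 58.7 and 52.9 CPM in Control libraries (-0.13 ± 0.19, interval -0.50 to 0.25).

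Among the later sterol steps at P60, Sc5d (ENSMUSG00000032018, GRCm38 chr9:42251595-42264256, minus strand), the sterol desaturase that precedes Dhcr7, had 12.2, 9.18, 8.18 and 14.4 CPM in T2MG and 52.2, 38.4, 18.7 and 20.3 CPM in Control libraries. It fell by 1.56 on the log2 scale (SE 0.30, edgeR adjusted p = 0.000581), and the groups did not overlap although the Control libraries spread widely. Msmo1, the methylsterol oxidase of this path, had 47.2, 41.7, 42.8 and 51.0 CPM in T2MG and 116, 69.9, 62.2 and 64.4 CPM in Control libraries (-0.77 ± 0.19, edgeR adjusted p = 0.00376). Dhcr7 went the other way, with 57.7, 70.3, 76.8 and 62.7 CPM in T2MG and 52.7, 31.7, 43.7 and 50.5 CPM in Control libraries (0.58 ± 0.16, edgeR adjusted p = 0.00699). The pair that acts in turn, Sc5d and Dhcr7, thus changed in opposite directions. Fdft1, the squalene synthase, had 47.7, 50.0, 47.0 and 46.9 CPM in T2MG and 52.9, 59.3, 62.7 and 64.7 CPM in Control libraries (-0.32 ± 0.10, edgeR adjusted p = 0.014), a gene whose exons overlap those of Ctsb.

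For the regulators at P60, Srebf1 had 191, 225, 206 and 212 CPM in T2MG and 87.0, 96.5, 82.2 and 101 CPM in Control libraries. It rose by 1.19 ± 0.10 (edgeR adjusted p = 8.57e-08), with no overlap. Scap had 52.0, 59.98, 54.9 and 57.8 CPM in T2MG and 64.8, 71.2, 83.0 and 73.8 CPM in Control libraries (-0.38 ± 0.13, edgeR adjusted p = 0.0229), and Insig2 had 54.9, 45.2, 55.9 and 59.6 CPM in T2MG and 77.4, 81.4, 59.4 and 73.1 CPM in Control libraries (-0.43 ± 0.15, edgeR adjusted p = 0.0248). Scap did not overlap between the groups, whereas for Insig2 the highest T2MG library lay just above the lowest Control library. The call of Scap ended without Control 3, T2MG 1 or T2MG 3 (0.0527 to 0.0793) and that of Insig2 without Control 2 or T2MG 2 (0.079 and 0.0789). Srebf2 had 36.3, 44.2, 32.0 and 34.6 CPM in T2MG and 38.6, 16.8, 25.6 and 26.9 CPM in Control libraries (0.45 ± 0.24, edgeR adjusted p = 0.144).

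Within fatty acid synthesis at P60, 4 of 6 genes rose and 1 fell, beside the 23.5% and 15.7% of all genes tested. Scd1 had 8.94, 4.72, 4.91 and 3.74 CPM in T2MG and 2.91, 0.142, 0.869 and 0.56 CPM in Control libraries (2.30 ± 0.65, edgeR adjusted p = 0.0089). Scd2 (ENSMUSG00000025203, GRCm38 chr19:44293674-44306864, plus strand) had 295, 439, 270 and 323 CPM in T2MG and 82.0, 225, 195 and 154 CPM in Control libraries (1.02 ± 0.27, edgeR adjusted p = 0.00555). Both desaturase genes had the groups apart, with Scd1 at a small fraction of the level of Scd2. Fasn (ENSMUSG00000025153, GRCm38 chr11:120805846-120824547, minus strand) had 33.5, 66.4, 29.8 and 32.0 CPM in T2MG and 14.8, 19.5, 25.3 and 19.3 CPM in Control libraries (1.03 ± 0.31, edgeR adjusted p = 0.0141), and without T2MG 2 the value was 0.69 and the call ended (0.0747). Acss2, which makes acetyl-CoA from acetate, had 16.4, 17.3, 16.1 and 16.7 CPM in T2MG and 12.9, 10.4, 5.28 and 5.44 CPM in Control libraries (0.96 ± 0.25, edgeR adjusted p = 0.00518). Acly (ENSMUSG00000020917, GRCm38 chr11:100476353-100528000, minus strand), the other source of cytosolic acetyl-CoA, had 148, 159, 157 and 170 CPM in T2MG and 249, 338, 288 and 296 CPM in Control libraries. It fell by 0.88 on the log2 scale (SE 0.12, edgeR adjusted p = 9.55e-06), so the citrate and the acetate enzyme changed in opposite directions.

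Without P60 Control 1, the library with the neutrophil and monocyte markers, 10 members were called higher and 6 lower, against 31.1% and 16.2% of all genes in that fit. Elovl6, the elongase that extends palmitate, was then higher (1.50, edgeR adjusted p = 0.00087), as was Srebf2 (0.67, 0.0237), while with all libraries Elovl6 had 3.45, 3.39, 3.04 and 4.02 CPM in T2MG and 3.60, 1.28, 0.869 and 1.52 CPM in Control libraries (0.93 ± 0.36, 0.0513). The log2 fold change of Scd1 was 3.40 and that of Sc5d -1.23 without P60 Control 1. The marker calls that follow are from the fit of all 20 libraries, which called 23.5% of all genes higher and 15.7% lower. Oligodendrocyte markers summed to 1856, 1005, 1081 and 1554 CPM in T2MG and 395, 304, 392 and 329 CPM in Control libraries, with 12 of 13 called higher. Border macrophage markers (9 genes) summed to 7240 to 11912 CPM in T2MG and 60.7 to 606 CPM in Control libraries, with 9 of 9 called higher. Astrocyte markers summed to 243 to 442 CPM in T2MG and 227 to 337 CPM in Control libraries, and although these sums overlap, 11 of 13 were called higher and 1 lower. Neuron markers summed to 71.6 to 88.1 CPM in T2MG and 8.74 to 48.9 CPM in Control libraries, with 10 of 17 called higher, and 8 of 12 microglia markers were called lower. The part of any of these in the result was not tested.

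**Figure D4:**
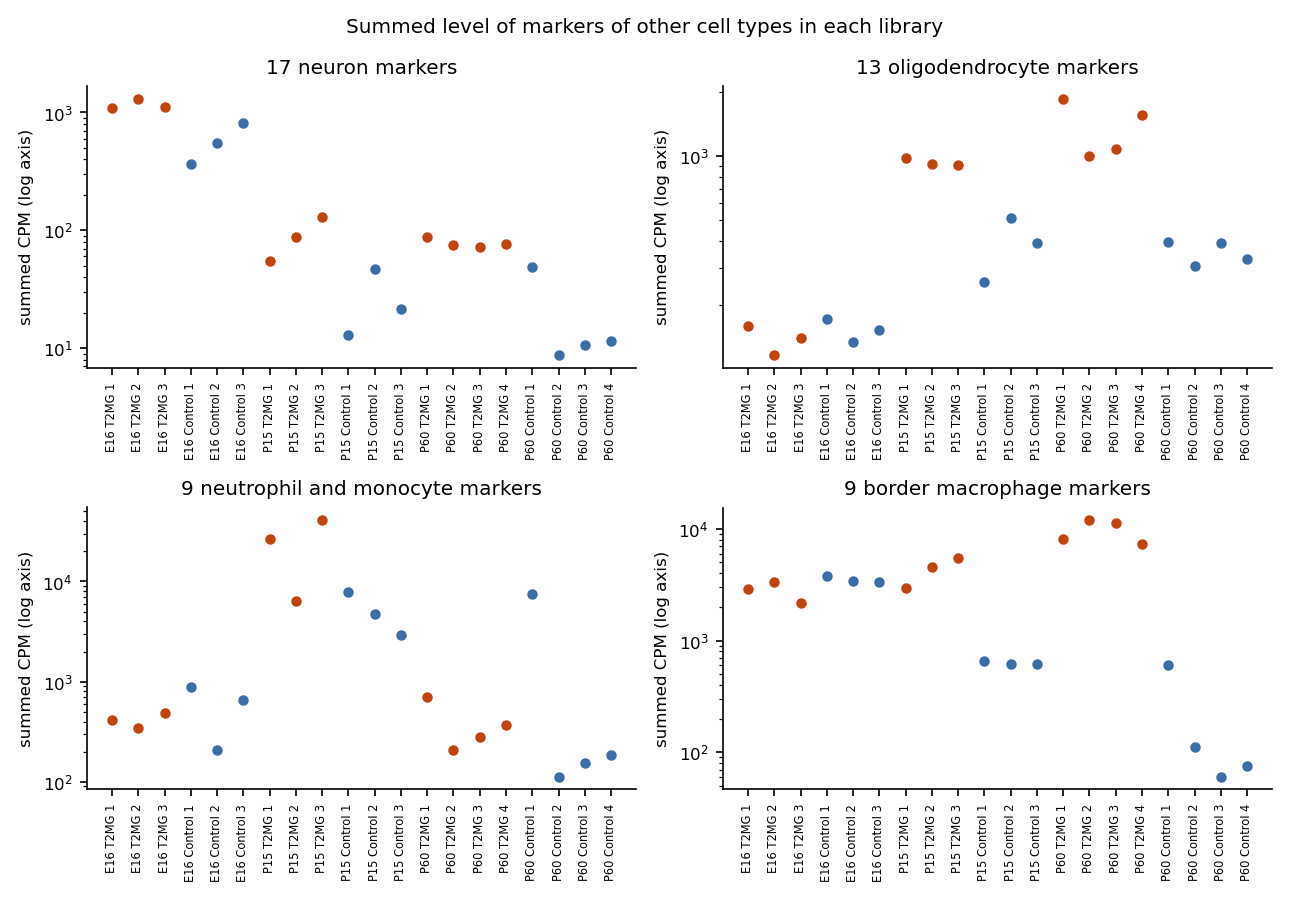
Summed CPM (log axis) of 17 neuron, 13 oligodendrocyte, 9 neutrophil and monocyte and 9 border macrophage markers in each library, orange for T2MG and blue for Control. At E16 the neuron markers of Control 1, 2 and 3 climb toward the T2MG libraries, and at P60 Control 1 lies above the other Control libraries in the neuron, neutrophil and border macrophage panels.

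Whether the genotype difference itself changed with age was tested as a difference of differences. Between E16 and P15 it shifted down for Hmgcs1 by 1.67 (SE 0.32, edgeR adjusted p = 0.00234), Cyp51 by 1.13 (SE 0.29, 0.0129) and Acly by 0.60 (SE 0.19, 0.0349), and up for Srebf1 by 1.02 ± 0.17 (0.000982) and Mvk by 0.94 ± 0.30 (0.038). That is 2 of 30 members upward, against 8.97% of all genes tested, and 3 of 30 downward, against 7.31%. Hmgcs1 thus had T2MG above Control before birth and below it at P15. The Mvk call ended on leaving out any of the 12 libraries other than E16 Control 2, P15 Control 2 and P15 T2MG 2 (edgeR adjusted p of 0.0505 to 0.107). That of Acly ended on leaving out any other than E16 Control 3, P15 Control 1 and P15 T2MG 3 (0.0502 to 0.1). Between P15 and P60 no member shifted up by edgeR (5.63% of all genes), and 0 did by DESeq2. At an unadjusted edgeR p under 0.05 in either direction there were 5 of 30 members, against 3882 of 15568 genes tested. The genotype difference of Sc5d shifted down by 1.64 (SE 0.46, edgeR adjusted p = 0.0343), which is 1 of 30, against 2.4% of all genes, and this call ended without P15 Control 2, P15 Control 3, P15 T2MG 2, P60 Control 2, P60 T2MG 2 or P60 T2MG 3 (0.0623 to 0.0998). Without P60 Control 1, Idi1 (1.08, edgeR adjusted p = 0.0264), Sqle (1.82, 0.0465) and Acss2 (1.11, 0.0295) shifted up. Acly (-0.63, 0.0173) then shifted down beside Sc5d. That fit called 2665 of 15542 genes in either direction.

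The stages were also compared within each genotype. From E16 to P15, 13 members fell (31.3% of all genes tested) and 5 rose (29.5%) in T2MG microglia, and 10 fell (26.7%) and 5 rose (24%) in Control microglia. Fasn dropped by 2.91 (SE 0.38, edgeR adjusted p = 6.12e-06) in T2MG and by 2.85 (SE 0.38, 1.44e-05) in Control microglia, and Elovl6 dropped by 2.13 (SE 0.41, 0.000275) in T2MG and by 1.90 (SE 0.41, 0.00101) in Control microglia. Scd2 and Srebf2 also fell in both genotypes, Srebf2 by 1.26 (SE 0.27, 0.000739) in T2MG and by 1.14 (SE 0.27, 0.00224) in Control microglia. Scd1 rose in both, by 2.30 ± 0.72 (0.0102) in T2MG and 2.04 ± 0.75 (0.0306) in Control microglia, and so did Ebp and Insig2. The Scd1 call in Control microglia ended without E16 Control 1, E16 Control 2, P15 Control 1 or P15 Control 2 (0.0573 to 0.112). Depth differed between E16 and the later stages, and neuron markers fell with age in both genotypes (14 of 17 called lower in T2MG, 15 of 17 in Control), so age and such differences cannot be told apart.

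In T2MG microglia the genes that fell between E16 and P15 were spread along the sterol path. Hmgcs1 dropped by 2.24 (SE 0.23, edgeR adjusted p = 6.15e-07), Sqle by 2.23 (SE 0.55, 0.00203), Cyp51 by 1.44 (SE 0.21, 1.53e-05), Lss by 1.03 (SE 0.24, 0.0013) and Acat2 by 1.01 (SE 0.20, 0.000411). In Control microglia Hmgcs1 dropped by 0.57 (SE 0.22, 0.0405), a call that ended without E16 Control 2, E16 Control 3, P15 Control 1 or P15 Control 2 (0.0523 to 0.311), while Sqle, Cyp51, Lss and Acat2 did not pass, with fold changes of -0.68, -0.31, -0.45 and -0.18. Of these 5 genes, the test of the difference between the genotypes passed for Hmgcs1 and Cyp51, as given above. Mvk behaved otherwise, being level in T2MG (0.05 ± 0.21, 0.841) and down by 0.89 (SE 0.21, 0.0023) in Control microglia. Srebf1 rose by 1.02 ± 0.12 (1.96e-06) in T2MG and was level in Control microglia (0.00 ± 0.12, 0.988).

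**Figure D5:**
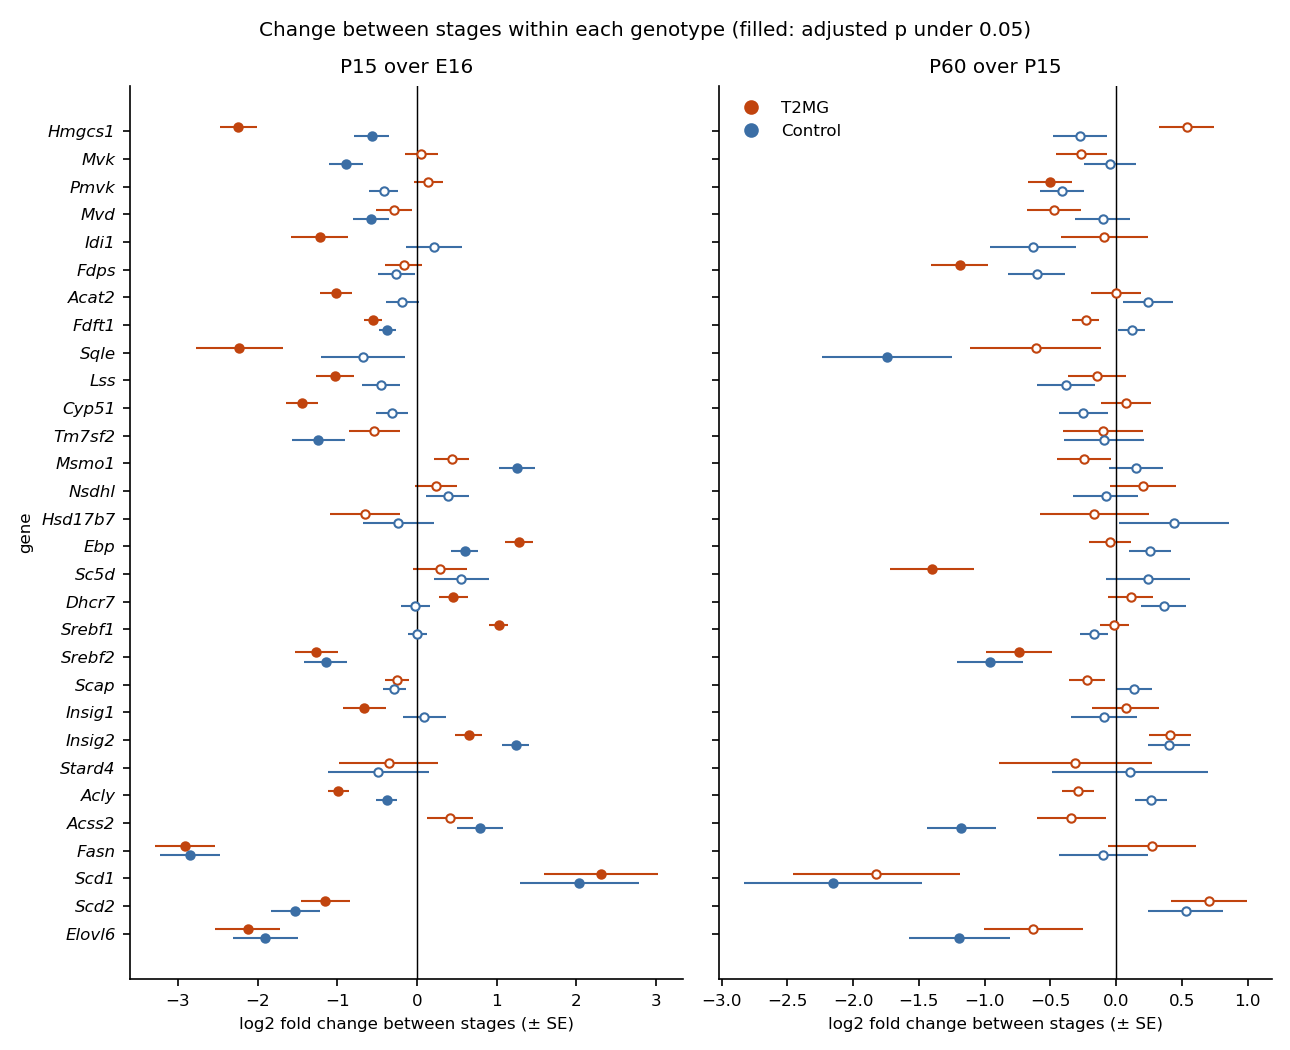
Log2 fold change between consecutive stages for each gene (x axis, bars of 1 SE), in T2MG (orange) and Control (blue), filled where the edgeR adjusted p is under 0.05; left P15 over E16, right P60 over P15. Fasn, Elovl6, Scd2 and Srebf2 fall in both genotypes on the left, Hmgcs1 and Sqle lie near -2.2 in T2MG, and fewer points are filled on the right.

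From P15 to P60 the changes were fewer. In T2MG microglia Fdps, Sc5d, Srebf2 and Pmvk fell (4 of 30, against 9.4% of all genes tested), Fdps by 1.19 (SE 0.22, edgeR adjusted p = 0.00172) and Sc5d by 1.40 (SE 0.32, 0.0065). In Control microglia Sqle, Srebf2, Acss2, Scd1 and Elovl6 fell (5 of 30, against 13%), with Acss2 down by 1.18 (SE 0.26, 0.00717). No member rose by edgeR in either genotype (10.8% of all genes in T2MG, 5.61% in Control). At an unadjusted edgeR p under 0.05 in either direction there were 11 of 30 members in T2MG and 10 of 30 in Control microglia. Of 15568 genes tested, 5397 in T2MG and 5282 in Control microglia were under it. DESeq2 called 0 members higher in T2MG and 1 in Control microglia. In Control microglia the call of Scd1 ended without any library other than P60 Control 1 (edgeR adjusted p of 0.0595 to 0.101), those of Sqle (0.054 to 0.0851) and Elovl6 (0.0962 to 0.151) without any other than P60 Control 1 and P15 Control 2, and that of Srebf2 without P15 Control 1 or 3 (0.0811 and 0.0689). In T2MG microglia the call of Srebf2 ended without any library other than P15 T2MG 3 (0.0524 to 0.126), and that of Pmvk without any other than P15 T2MG 2 and P60 T2MG 1 (0.0678 to 0.197). Srebf2 was the regulator that fell at both steps and in both genotypes, with a mean of 36.8 CPM in P60 T2MG libraries against 147 CPM in E16 T2MG libraries, and 26.9 CPM in P60 Control libraries against 116 CPM in E16 Control libraries.

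Other genes of the same pathways, from lists that do not contain the 30, were read beside them. The shares of all genes tested that were called higher and lower, against which these counts stand, were 0.527% and 2.67% at E16, 11.7% and 12.3% at P15, and 23.5% and 15.7% at P60. Of 19 other genes of sterol synthesis and SREBP control, 0 rose and 1 fell at E16, 5 rose and 2 fell at P15, and 2 rose and 3 fell at P60, with medians of -0.01, 0.15 and 0.03. At E16 the gene that fell was Tmem97, a sterol-responsive membrane protein (-0.58 ± 0.16, edgeR adjusted p = 0.0474). Acat1, the mitochondrial thiolase, rose at P15 (0.57 ± 0.15, 0.00969) and P60 (1.26 ± 0.13, 7.14e-07). Ggps1, which takes farnesyl diphosphate away toward protein prenylation, fell at P15 (by 0.85, SE 0.20, 0.00503) and at P60 (by 1.05, SE 0.17, 0.000122). Among 28 other fatty acid genes, 0 rose and 4 fell at E16, 6 rose and 5 fell at P15, and 8 rose and 6 fell at P60. Mlxipl, which encodes the glucose-responsive factor ChREBP, fell at every stage, by 4.33 (SE 0.81, 0.00578), 4.30 (SE 0.68, 0.000227) and 6.81 (SE 0.69, 5.26e-07). Acsl3, an acyl-CoA synthetase of lipid droplets, rose at P15 (2.04 ± 0.28, 6.71e-05) and P60 (3.28 ± 0.26, 3.01e-08).

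Genes of sterol efflux, storage and the sterol-sensing LXR receptors were counted too, to be set against the same shares of all genes. Of 19 such genes, 0 rose and 3 fell at E16, 9 rose and 1 fell at P15, and 10 rose and 3 fell at P60, with medians of -0.34, 0.67 and 0.73. Nr1h3, which encodes LXR alpha, a receptor known to activate Srebf1 transcription, had fold changes of 1.11 ± 0.39 (edgeR adjusted p = 0.138) at E16, 2.94 ± 0.40 (4.83e-05) at P15 and 3.60 ± 0.37 (6.53e-07) at P60. Abcg1, a sterol exporter, rose by 1.94 ± 0.22 (1.01e-05) at P15 and 2.12 ± 0.19 (1.33e-07) at P60. Plin2, the coat protein of lipid droplets, rose by 1.73 ± 0.20 (1.19e-05) at P15 and 2.68 ± 0.18 (5.66e-09) at P60. Apoe, the main lipid carrier of the brain, rose by 3.51 ± 0.25 (2.47e-07) at P15 and 4.15 ± 0.23 (7.49e-10) at P60. At E16 those that fell were Mylip, Lpcat3 and Npc2, with fold changes of -1.13, -0.67 and -0.67, and Lpcat3, a phospholipid-remodelling enzyme, fell at every stage.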

How the data were processed

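Poly-A RNA of sorted microglia was sequenced from 20 libraries in 6 groups; per the labels, a micro-scale Qiagen kit gave the RNA and libraries were made with Clontech's SMART-Seq ultra low input kit, which amplifies full-length cDNA. What the authors deposited is a table of raw read counts, with a row per symbol and a column per library. TopHat2, Cufflinks 2.2.1 and build mm10 are named, with no role, per the submitters' processing notes. Not given in the sources used are the counting tool, its annotation, and how it treated strand and multiply mapped reads. Amplified reads without molecular identifiers are not independent molecules.

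Of 24421 rows, 27 held a calendar date in place of a symbol (0.122% to 0.256% of a library's counts) and were left out. In R 4.3.3, edgeR 4.0.16 (default expression filter, 15568 genes kept, TMM scaling, 1 quasi-likelihood fit of 6 group means over 20 libraries) gave log2 fold changes and F statistics. The p-values were adjusted by Benjamini-Hochberg over all genes tested, with a gene called under 0.05. Each standard error was computed as the absolute log2 fold change divided by the square root of its F statistic. The biological coefficient of variation was 0.327. Intervals of fold changes are nominally at 95%. They use the normal distribution with the standard errors above, which makes them narrower than the F test would. Replicate libraries differed by more than sampling noise (chi-square of 5.25 to 152 per gene). The fit was tested on simulated data. Alternatives were RLE scaling, no filter, DESeq2 1.42.0, fits of 1 stage, the replicate number as a block, and leaving out each library. Exon lengths, positions and overlaps came from GENCODE M21 (GRCm38, the assembly of mm10), promoters from RefSeq tables.

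The members, the other lists and the rule for naming genes (all 30 members, and of each other lipid list up to 4 called genes of smallest adjusted p per stage, of which a part is printed) were chosen with earlier results of these data known.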

Additional observations from a re-analysis of the deposited data

Results flagged for a closer look

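In 60 pairs of a member and a P60 group, the highest or lowest library was checked for a gap to the others that is large for the group's range, which chance gives in about 1 of 20 groups, and 4 pairs had one. Fasn had 66.4 CPM in P60 T2MG 2, against 33.5 CPM in the nearest T2MG library. Idi1 had 35.8 CPM in P60 Control 1, against 13.7 CPM in the nearest Control library. Msmo1 had 116 CPM in P60 Control 1, against 69.9 CPM in the nearest. Hsd17b7, a sterol reductase, had 14.3 CPM in P60 Control 1, against 5.14 CPM in the nearest. P60 Control 1 is also the library with 7481 CPM of neutrophil and monocyte markers, and the part of this in the 3 gaps was not tested. Fasn lost its P60 call without P60 T2MG 2.

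The genotype difference, T2MG over Control, differed between E16 and P15 for 5 members by the edgeR test of that difference: Hmgcs1 by -1.67 (adjusted p = 0.00234), Cyp51 by -1.13 (0.0129), Acly by -0.60 (0.0349), Mvk by 0.94 (0.038) and Srebf1 by 1.02 (0.000982) on the log2 scale. Between P15 and P60 it differed for Sc5d, by -1.64 (0.0343). The calls of Hmgcs1, Cyp51 and Srebf1 were kept on leaving out any single library, and those of Mvk, Acly and Sc5d were not.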

How the results depend on the processing

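At P60 the counts of 8 members higher and 6 lower stayed within 1.5 times under every alternative run, with 7 to 10 higher and 5 to 6 lower on leaving out 1 library. At E16 the 1 member higher became 2 with RLE scaling, 4 with DESeq2, and 0 with no filter, with E16 libraries alone or with the replicate block, and 0 to 4 on leaving out 1 library; members lower were 1 with DESeq2 and 0 to 1 on leaving out 1. At P15 the 5 higher became 3 with no filter and 3 to 5 without 1 library, and the 1 lower became 2 with DESeq2 and 1 to 3 without 1 library. For the difference of genotype effects between E16 and P15, the 2 shifted up became 1 with no filter or with the block and 1 to 2 without 1 library, and the 3 shifted down became 5 with RLE scaling, 6 with DESeq2, 5 with the block and 2 to 5 without 1 library. Between P15 and P60, shifts up were 0 to 3 without 1 library, and the 1 shift down became 2 with RLE scaling or DESeq2, 0 with the block and 0 to 2 without 1 library. Between stages in Control microglia, from E16 to P15 members higher were 3 to 5 and lower 6 to 10 without 1 library, and from P15 to P60 higher were 1 with DESeq2 and 0 to 1, and lower 1 to 7, without 1 library. In T2MG microglia from P15 to P60, higher were 1 with the block and 0 to 1 without 1 library, and the 4 lower became 2 with no filter or the block and 2 to 4 without 1 library. The cause of these shifts was not tested, beyond fewer libraries in a fit. No called member changed sign under any alternative run; uncalled members changed sign in 6 of 180 values at E16, 17 of 180 at P15 and 4 of 240 at P60 without 1 library, and in 3, 2 and 1 of 150 values at those stages under the other alternatives.

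Same-numbered T2MG and Control libraries did not deviate together at every number (correlations of -0.063 to 0.333), and 8 of 20 libraries correlated best with their own number, so the numbers were not taken as pairs. E16 libraries were the shallowest, with 7437764 to 9221396 counts, against 12726594 to 16526122 counts later, and the part of depth in the low number of E16 calls was not tested.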
